A study of Rattus norvegicus with 10 samples.

Results

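The enzymes of heme synthesis were followed in 10 liver libraries of diabetic rats of the wistar strain, 5 from rats with a sleeve gastrectomy (SG) and 5 from sham-operated rats (SHAM). Sleeve gastrectomy narrows the stomach to a tube by cutting away its larger part, and is used against obesity. The genes were chosen by name as Alas1, Alas2, Alad, Uros, Urod, Cpox, Ppox and Fech,; 8 of 8 were found among the 20226 named genes of the deposited isoform table. Every isoform of these names that matches, lies within, shares a junction with or overlaps the reference gene was summed, which gave 18 of 51430 isoforms. The other enzyme of the pathway is not analysed here.

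All rats in both groups were wild type. They were fed for 4 weeks on a diet with 60% of its calories as fat and then injected with 35 mg/kg streptozotocin, which kills pancreatic beta cells, after 16 h of fasting. Animals above 16.7 mmol/L fasting glucose 3 days later were divided at random into SG and SHAM groups of matched body weight. The SG livers are labelled 3 months after surgery and the SHAM livers carry no time, so time and operation cannot be told apart. There was no group without diabetes, and the labels do not say that each library came from its own rat. P-values therefore measure the spread between these libraries, which may be technical in part.

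Heme is an iron-containing ring that carries oxygen in hemoglobin and works in the catalytic centre of cytochromes and catalase. Its synthesis starts in mitochondria, where 5-aminolevulinate synthase joins glycine to succinyl-CoA, moves to the cytosol for the middle steps and returns to mitochondria, where iron is inserted. Liver is a main site of the pathway after the bone marrow. In hepatocytes the first enzyme, encoded by Alas1, limits the rate and is held down by heme itself, while red cell precursors use a separate X-linked gene, Alas2, for the same reaction.

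Promoter windows of 7 of the 8 genes were present in the RefSeq table (GRCr8), and the windows of the most abundant pair, Alas1 and Alad, are shown with their motif matches. Each runs from 250 bases before the annotated start to 20 bases after it, 5′ to 3′ on the gene's strand. The Alas1 window lies at chr8:115768623-115768892 (minus strand) and the Alad window at chr5:80987882-80988151 (minus strand).
Alas1: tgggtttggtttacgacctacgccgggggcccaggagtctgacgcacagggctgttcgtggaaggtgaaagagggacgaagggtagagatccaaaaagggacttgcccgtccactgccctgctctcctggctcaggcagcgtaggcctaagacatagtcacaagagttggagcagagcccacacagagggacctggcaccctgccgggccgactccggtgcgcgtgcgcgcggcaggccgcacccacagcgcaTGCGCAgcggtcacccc
Alad: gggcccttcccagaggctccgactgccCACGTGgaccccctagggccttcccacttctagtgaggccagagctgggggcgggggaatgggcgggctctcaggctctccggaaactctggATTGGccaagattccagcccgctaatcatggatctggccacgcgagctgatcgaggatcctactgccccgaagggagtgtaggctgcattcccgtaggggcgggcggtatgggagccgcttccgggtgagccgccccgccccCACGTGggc
Capitals in the Alas1 window mark TGCGCA, a half-site of the motif of nuclear respiratory factor NRF1, a regulator of mitochondrial genes. The match begins at base 4, just after the annotated start. Among the 7 windows it was found in Alas1, and it occurred in 7.24% of all 33469 windows of 300 bases. Capitals in the Alad window mark the E-box CACGTG, which binds clock and MYC family factors, at -223 and 12, and ATTGG, the reverse complement of CCAAT, at -131. The E-box was also found in Urod (at -75), and in 6.42% of all windows. CCAAT or ATTGG occurred in Alad and Ppox and in 37.5% of all windows. The search covered 300 bases of every gene, 250 before to 50 after the start, of which the windows shown leave out the last 30. Both strands were searched, no matches of different motifs overlapped, and a match describes letters, not a site in use.

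The 8 genes fell into levels that held from liver to liver, with 2 enzymes far above the rest. Mean FPKM, a read level corrected for transcript length and library size, over the 10 libraries was 94.4 ± 34.0 (SD) for Alas1 and 74.0 ± 13.5 for Alad, the enzyme of the second step. Fech, Cpox and Urod followed at 16.4 ± 3.28, 15.3 ± 1.94 and 15.0 ± 2.01. Ppox stood at 5.78 ± 0.786, Uros at 3.32 ± 0.636 and Alas2 at 2.09 ± 1.85. Alas1 and Alad together made up 63.8% to 80.2% of the summed FPKM of the 8 genes. Alad exceeded Fech in 10 of 10 libraries, Urod exceeded Ppox in 10 and Ppox exceeded Uros in 10. Neighbours within the middle level changed places, with Fech above Cpox in 6 of 10 libraries and Cpox above Urod in 6. Alas1 was above Alad in every library except SG 2, and Uros was above Alas2 in 8 of 10.

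**Figure D1:**
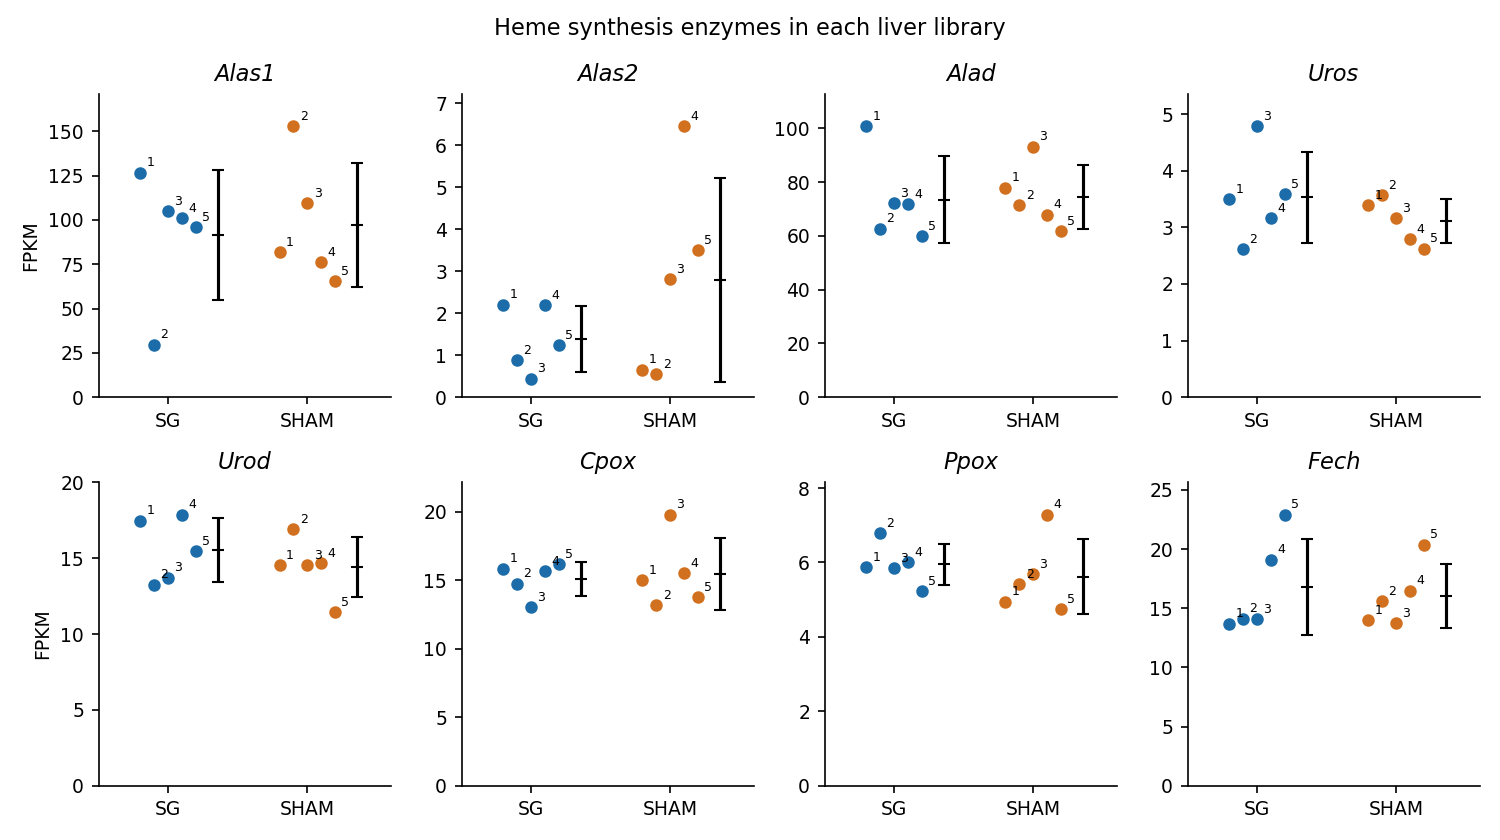
FPKM of each gene in the 5 SG and 5 SHAM libraries (points, labelled by replicate number), with the group mean and SD beside them. The groups overlap for every gene; Alas1 is lowest in SG 2 (29.7 FPKM) and Alas2 highest in SHAM 4 (6.45 FPKM).

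Spread across the 10 livers differed between the genes. The coefficient of variation of FPKM was 12.7% for Cpox, 13.4% for Urod and 13.6% for Ppox, below the median of 19.7% over 11139 genes with a mean of at least 1 FPKM. Alad (18.2%) and Uros (19.2%) lay near that median, as did Fech. Alas1 varied more than 82.3% of genes, and Alas2, with a coefficient of 88.7%, more than 97.8%. The 2 synthase genes, which share a reaction, were therefore the most variable members.

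None of the 8 genes passed the test between SG and SHAM. In edgeR's quasi-likelihood test over 11139 genes, 0 of 8 passed an adjusted p of 0.05 (adjusted p = 0.993 to 0.9998) and 0 of 8 had an unadjusted p under 0.05. Over all genes the test called 0 (0%), with 499 (4.48%) at an unadjusted p under 0.05, 298 higher and 201 lower in SG. On the FPKM scale limma also called 0 and put 640 higher and 52 lower at an unadjusted p under 0.05, while DESeq2 called 18 genes and had 626. Both DESeq2 and limma on log2(FPKM + 0.5) called 0 of the 8, with 0 at an unadjusted p under 0.05. The groups did not overlap in FPKM for 0 of the 8, against 1.34% of all genes. Log2 fold changes (SG minus SHAM) were below 0 for 6 genes and above 0 for 2, where 47.4% of all genes were above 0. In limma, whose FPKM scale sets the median gene at 0.080, 4 were below 0. The median was -0.067 over the 8 genes and -0.0099 over all genes. The 95% intervals of 7 genes held no change as large as 2-fold in either direction, and that of Alas2 did.

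**Figure D2:**
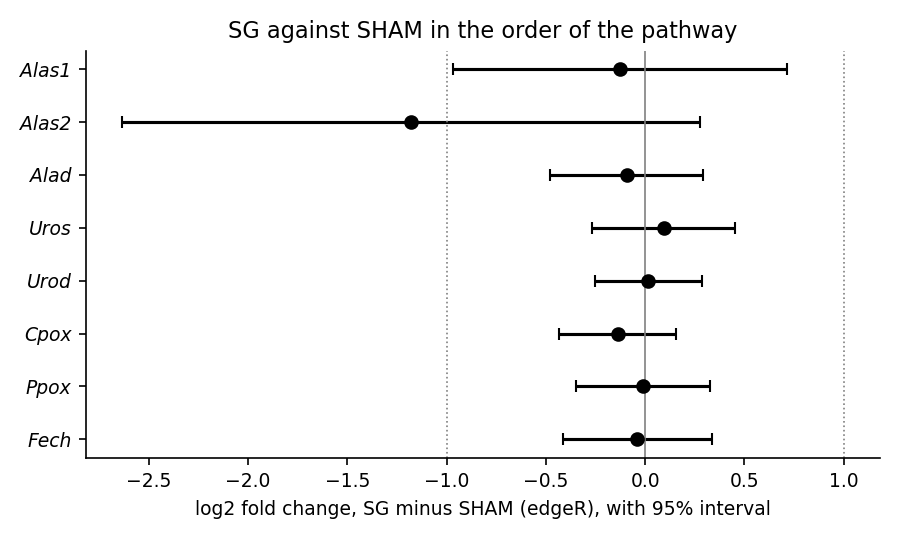
Log2 fold change of each gene, SG minus SHAM, with its 95% confidence interval from edgeR, in the order of the pathway. Every interval includes 0; dotted lines mark a 2-fold change, which the interval of Alas2 alone crosses.

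Alas1, the rate-limiting synthase of liver, was high in nearly all livers of both groups. Its 4 isoforms lie on the minus strand at chr8:114927722-114940177 (coordinates of the deposited table, whose notes name the build Rnor_6.0). It had 127 FPKM in SG 1, 29.7 in SG 2, 105 in SG 3, 101 in SG 4 and 96.0 in SG 5. In SHAM it had 81.8, 153, 109, 76.1 and 65.4 FPKM in SHAM 1 to SHAM 5. SG 2 stood below all other libraries, at 29.4% of the median of the other 9, and the rest of the groups overlapped. Estimated counts were 8500 to 38208 per library. The log2 fold change was -0.12 ± 0.38 (SE), with a 95% interval from -0.96 to 0.72 (edgeR, adjusted p = 0.993). In size this was within the spread of the libraries, and its sign turned without SG 2 (0.11) or SHAM 2 (0.12).

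In SG 2 the summed FPKM of 10 macrophage and Kupffer cell markers was 546, against 248 to 277 in the other SG libraries and 209 to 522 in SHAM. Stellate cell and fibroblast markers (8 of 8 in the table) summed to 95.7 there, against 37.3 to 48.4 in the other SG libraries and 28.2 to 57.7 in SHAM. Lymphocyte markers (9 of 9) summed to 87.0 in SG 2, against 32.7 to 42.7 in the other SG libraries and 15.7 to 41.5 in SHAM, and endothelial markers (7 of 8) to 155.0, the highest of the 10 libraries. Hepatocyte markers (9 of 10 in the table) summed to 36333, against 37858 to 47842 in the other SG libraries and 31369 to 43976 in SHAM. Albumin messenger RNA, the largest single part of that sum, reached 17083 FPKM in SG 2. Single markers of the list went both ways there. Fga (2432 FPKM) was the highest of the 10 libraries and Tf (10006 FPKM) the highest of the SG libraries. Cps1 (587 FPKM) and Tat (167 FPKM) were the lowest of the 10 libraries. In bulk tissue, fewer cells of a type and less RNA per cell cannot be told apart, and the part of these cells in the Alas1 value was not tested. Of the other members, Uros was lowest (2.61 FPKM) and Urod second lowest (13.3 FPKM) in SG 2, and Alad (62.7 FPKM) had rank 3 from the lowest. Ppox (6.79 FPKM) was second highest there. Alas2 (0.878 FPKM), at 40.2% of the median of the other 9, Cpox (14.8 FPKM) and Fech (14.1 FPKM) were in mid-order.

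Part of the Alas1 signal came from isoforms outside the reference annotation. The main reference isoform, ENSRNOT00000086232, has 10 exons and 1977 nt and held 54.4% to 84.1% of the gene's FPKM. A pair of assembled isoforms with fewer exons and greater length, MSTRG.22964.2 (8 exons, 3731 nt) and MSTRG.22964.3 (7 exons, 6796 nt), together held 15.0% in SHAM 4 to 44.4% in SG 5. Both begin 763 bases downstream of the 5′ end of that isoform. Their combined FPKM was 44.8 in SG 1, 8.02 in SG 2, 28.1 in SG 3, 35.7 in SG 4 and 42.6 in SG 5. In SHAM it was 22.6, 63.7, 30.3, 11.4 and 27.4 FPKM in SHAM 1 to SHAM 5. The assembled isoforms were thus low in SG 2 and SHAM 4 and highest in SHAM 2. One further transcript with the gene's name, MSTRG.22963.1, lies 954 bases beyond the 3′ end with 0.505 to 2.84 FPKM and was not summed.

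Alas2, the synthase of red cell precursors, was the lowest of the 8 genes and its values ran with those of the globin genes. It lies on the minus strand at chrX:23167696-23192070. It had 2.21 FPKM in SG 1, 0.878 in SG 2, 0.442 in SG 3, 2.18 in SG 4 and 1.23 in SG 5. In SHAM it had 0.656, 0.544, 2.80, 6.45 and 3.49 FPKM in SHAM 1 to SHAM 5. SHAM 3 to SHAM 5 were above every SG library, while SHAM 1 and SHAM 2 were below 4 of the 5. The log2 fold change was -1.18 ± 0.66 (SE), with a 95% interval from -2.63 to 0.28 (edgeR, unadjusted p = 0.102, adjusted p = 0.993). It was -0.61 without SHAM 4. In limma it was -0.55 on log2(FPKM + 0.5) and -0.63 on log2(FPKM + 0.1). On log2(FPKM + 1) it was -0.48, so a larger added constant gave a smaller change. Limma averages log values of the libraries and edgeR fits counts. The part of each in the difference from -1.18 was not tested. Estimated counts were 63 to 857. Alas1 exceeded Alas2 by 11.8-fold in SHAM 4 to 281-fold in SHAM 2.

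Globin messenger RNAs moved with Alas2 across the 10 libraries, a relation tested after the values were seen and for no other member. The alpha globin gene Hba-a2 had 389, 194, 110, 395 and 357 FPKM in SG 1 to SG 5 and 199, 214, 606, 978 and 602 in SHAM 1 to SHAM 5. The beta globin gene Hbb had 80.9, 47.4, 20.1, 90.1 and 56.8 FPKM in SG and 44.0, 46.6, 169, 213 and 109 in SHAM. For both genes SG 3 was lowest and SHAM 4 highest, as for Alas2. On log2 CPM, the count scaled to library size, Alas2 had a Pearson r of 0.98 with Hba-a2 (permutation p = 1e-05, the smallest that 100000 resamples can give, adjusted 5e-05) and a Spearman rho of 0.94 (permutation p = 0.00024, adjusted 0.0006). With Hbb, r was 0.96 (permutation p = 5e-05, adjusted 0.000125) and rho 0.98 (permutation p = 6e-05, adjusted 0.0003). Without SG 3 and SHAM 4, the libraries farthest from the median of Alas2, r was 0.97 and 0.93, and on values centred within groups 0.98 and 0.96.

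With Hba-a3, another alpha globin gene, r was 0.84 (permutation p = 0.00356, adjusted 0.00593) and rho 0.65 (permutation p = 0.0503, adjusted 0.0839), with an r of 0.78 without SG 3 and SHAM 4. With Slc4a1, the red cell anion exchanger, r was 0.45 (permutation p = 0.192, adjusted 0.24), rho 0.48 (permutation p = 0.167, adjusted 0.208) and r without those libraries 0.69. With Tfr2, which hepatocytes also express, r was 0.33 (permutation p = 0.3455, adjusted 0.3455), rho 0.28 (permutation p = 0.4285, adjusted 0.4285) and r without those libraries -0.21. These 5 relations were one family of two-sided tests. Globin genes share reads with near-identical copies, so single globin levels are uncertain. Of 26 red blood cell and erythroid markers, 16 were in the table and 5 had a mean of at least 1 FPKM. The summed FPKM of the 16 was 227 to 616 in SG and 364 to 1326 in SHAM. Most of that sum came from Hba-a2, Hbb and Tfr2, and Tfr2 ran from 81.4 FPKM in SHAM 3 to 126 in SG 4. In at least 1 library, 10 markers were at 0, among them Epb42, Ahsp, Rhag and Epor, and the highest value of a marker outside the 5 was 1.10 FPKM. All 5 tested red cell markers were below 0 (median log2 fold change -0.98), where 47.4% of all genes were above 0. They are not independent, as Hba-a2, Hba-a3 and Hbb are all globin genes, and Tfr2 stood at only -0.028 ± 0.14 (SE). None passed (0 of 5, edgeR, adjusted p = 0.993 to 0.997), and 1, Hba-a3 (-1.51 ± 0.67 SE), had an unadjusted p under 0.05, as 4.48% of all genes did. The part of red cells in the Alas2 value was not tested.

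**Figure D3:**
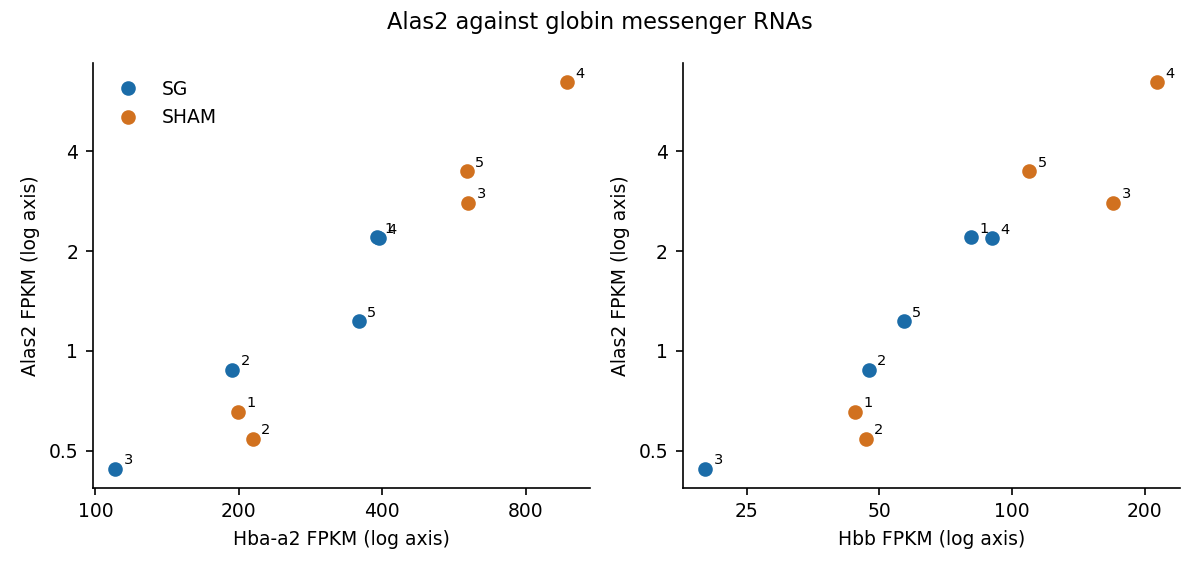
Alas2 FPKM against Hba-a2 FPKM (left) and Hbb FPKM (right) in the 5 SG and 5 SHAM libraries, labelled by replicate number, on log axes. The libraries run from SG 3 at the lower left (0.442 FPKM of Alas2) to SHAM 4 at the upper right (6.45 FPKM), and the groups mix along the way.

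Alas2 reads were divided between the 10-exon reference isoform ENSRNOT00000000180 and a 5-exon assembled isoform, MSTRG.24354.2, that starts upstream of it. The assembled isoform held 38.4% to 69.6% of Alas2 FPKM in SG and 55.5% to 59.8% in SHAM 3 to SHAM 5, whereas SHAM 1 had 3.94% and SHAM 2 had 5.94%. The reference isoform averaged 0.573 ± 0.284 FPKM over the SG libraries and 1.32 ± 0.919 over the SHAM libraries (SD, n = 5), with overlap. Between groups it stood at -1.31 ± 0.56 on the log2 scale (SE), with an unadjusted p of 0.0428 in edgeR over 39559 isoforms and an adjusted p of 1. It was the 1 of 17 tested member isoforms with an unadjusted p under 0.05, where 4.02% of all isoforms had one. No member isoform passed adjusted (0 of 17, edgeR), as for all isoforms (0%).

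Alad encodes aminolevulinate dehydratase, a zinc enzyme that joins a pair of aminolevulinate molecules into porphobilinogen and is a known target of lead. Its 4 isoforms lie at chr5:78368867-78379346. It had 101 FPKM in SG 1 and 62.7, 72.1, 71.8 and 59.9 in SG 2 to SG 5. In SHAM it had 77.9, 71.5, 93.2, 67.9 and 61.8 FPKM in SHAM 1 to SHAM 5. SG 1 and SHAM 3 were the highest libraries, and the groups overlapped over almost their full range. The groups stood -0.094 ± 0.17 (SE) apart in log2 fold change, with an interval from -0.48 to 0.29 (edgeR, adjusted p = 0.993).

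Beneath the gene total, 2 Alad isoforms replaced each other between libraries. ENSRNOT00000020625 (12 exons, 1378 nt) begins at position 78379346, and ENSRNOT00000075916 (12 exons, 1262 nt) begins 3314 bases downstream, so the annotation gives them different first exons. The longer isoform held 94.3% to 97.8% of Alad FPKM in 7 libraries. In these 7 the shorter one had 0.025 to 0.127 FPKM. In SG 2 the shorter isoform had 56.1 FPKM and the longer one 4.71, and in SHAM 3 they had 85.6 and 5.28. In SHAM 4 the reads were split, at 24.1 and 41.9 FPKM. The sum of both was 57.0 to 98.6 FPKM in SG and 58.4 to 90.9 in SHAM. The exchange occurred in 1 SG and 2 SHAM libraries. Neither isoform passed between groups in edgeR (log2 fold change 0.22 ± 0.75 SE for the longer and -1.12 ± 2.48 for the shorter, adjusted p = 1). Isoform counts in the table are estimates, and the part of the assignment of shared reads in this exchange was not tested.

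**Figure D4:**
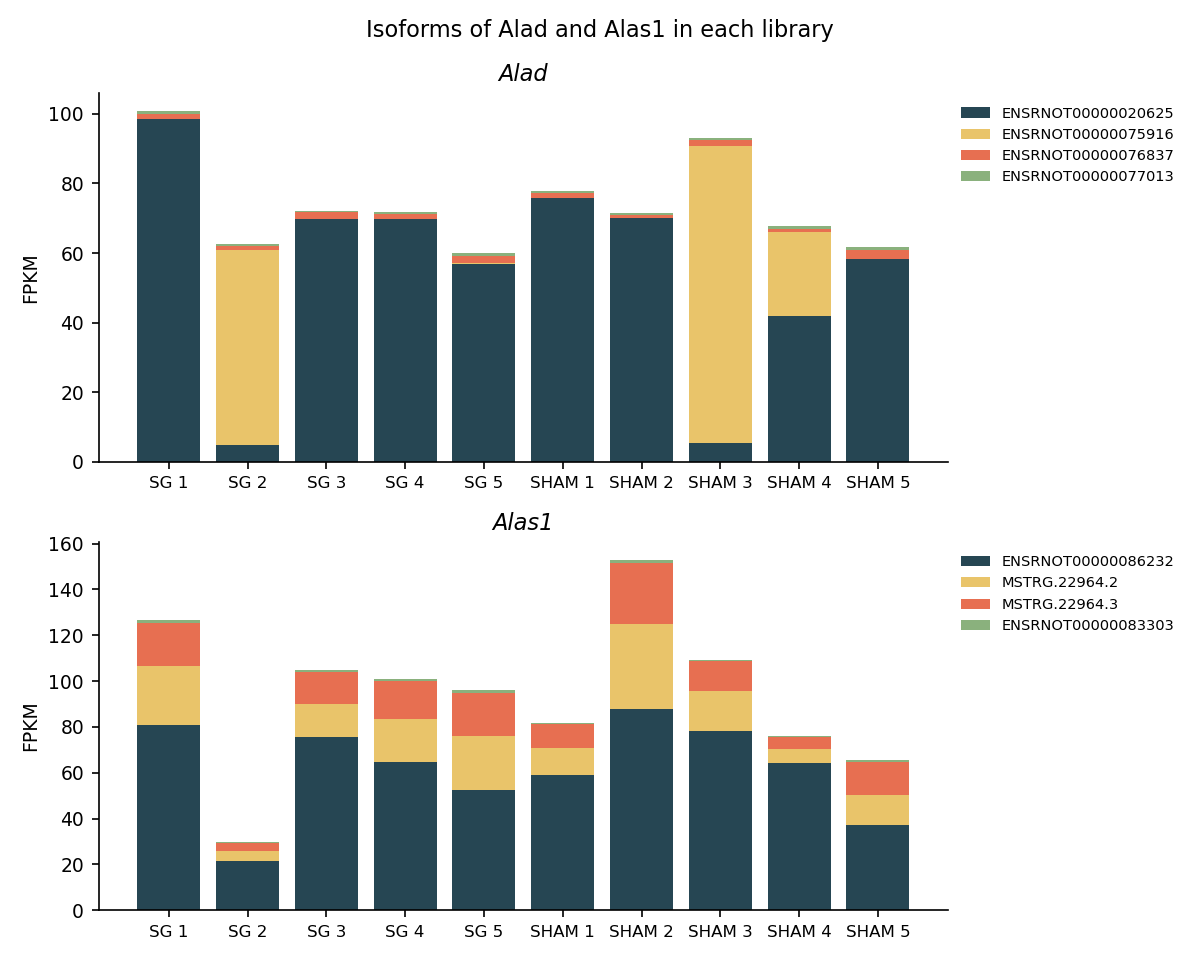
Stacked FPKM of the isoforms of Alad (top) and Alas1 (bottom) in each library. ENSRNOT00000075916 replaces ENSRNOT00000020625 in SG 2 and SHAM 3 and shares Alad with it in SHAM 4, while the main Alas1 isoform leads in all 10 libraries.

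Uros, the synthase that closes the linear tetrapyrrole into uroporphyrinogen III, was the scarcest enzyme of the cytosolic steps. Its single isoform lies at chr1:205756640-205777167 and overlaps the first bases of Bccip on the other strand. It had 3.50, 2.61, 4.79, 3.16 and 3.58 FPKM in SG 1 to SG 5 and 3.40, 3.57, 3.17, 2.80 and 2.63 in SHAM 1 to SHAM 5. SG 3 was highest and SG 2 lowest, so the SG group enclosed the SHAM group. SG stood 0.093 ± 0.16 (SE) from SHAM in log2 fold change, with an interval from -0.27 to 0.45 (edgeR, adjusted p = 0.993), and -0.057 without SG 3.

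Urod removes carboxyl groups from uroporphyrinogen to give coproporphyrinogen, and lies at chr5:135855433-135860508. It had 17.5, 13.3, 13.7, 17.9 and 15.5 FPKM in SG 1 to SG 5 and 14.5, 16.9, 14.5, 14.7 and 11.4 in SHAM 1 to SHAM 5. SHAM 5 was lowest and SG 4 highest. Its log2 fold change of 0.017 ± 0.12 (SE) was the most narrowly bounded of the 8, with an interval from -0.25 to 0.29 (edgeR, adjusted p = 0.997). The sign turned without SG 1 (-0.025), SG 4 (-0.054) or SHAM 5 (-0.046). An assembled isoform, MSTRG.18580.1, held 10.2% of Urod FPKM in SG 1 and at most 0.07% elsewhere.

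Cpox, the oxidase that forms protoporphyrinogen, had 15.9, 14.8, 13.0, 15.7 and 16.2 FPKM in SG 1 to SG 5 and 15.0, 13.2, 19.8, 15.5 and 13.8 in SHAM 1 to SHAM 5. It has a single isoform of 7 exons at chr11:44039669-44049648. SHAM 3 stood above the other 9 libraries, which spanned 13.0 to 16.2 FPKM. Cpox had a log2 fold change of -0.14 ± 0.13 (SE), with an interval from -0.43 to 0.16 (edgeR, adjusted p = 0.993).

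Ppox, the mitochondrial oxidase that forms protoporphyrin, lies at chr13:89650094-89654244. It had 5.87, 6.79, 5.85, 6.01 and 5.24 FPKM in SG 1 to SG 5 and 4.95, 5.42, 5.68, 7.29 and 4.74 in SHAM 1 to SHAM 5. SHAM 4 was highest and SHAM 5 lowest, with the SG libraries between them. Ppox had a log2 fold change of -0.012 ± 0.15 (SE), with an interval from -0.35 to 0.32 (edgeR, adjusted p = 0.9998), and it was positive without SG 5 (0.052), SHAM 3 (0.0064) or SHAM 4 (0.12). The reference isoform held only 19.8% to 54.5% of Ppox FPKM. The assembled isoform MSTRG.6750.3 (12 exons) led in 8 libraries, and the reference isoform of 13 exons led in SG 5 and SHAM 3.

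Fech, the ferrochelatase that inserts ferrous iron to complete heme, has 1 isoform of 11 exons at chr18:59941992-59975192. It had 13.7, 14.1, 14.1, 19.1 and 22.9 FPKM in SG 1 to SG 5 and 14.0, 15.6, 13.7, 16.5 and 20.4 in SHAM 1 to SHAM 5. SG 5, SHAM 5 and SG 4 were the highest libraries, from both groups. For Fech the log2 fold change was -0.040 ± 0.17 (SE), with an interval from -0.42 to 0.33 (edgeR, adjusted p = 0.993). Its sign turned without SG 1 (0.024), SG 2 (0.013), SG 3 (0.0060) or SHAM 5 (0.075). In limma on log2(FPKM + 0.5) Fech stood at 0.049 and Ppox at 0.087, beside a median of 0.080 over all genes on that scale.

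Most pairs of the 8 genes were weakly related across livers. Over the 28 pairs of members, Pearson r on log2 CPM ran from -0.49 (Alad and Fech) to 0.68 (Alas2 and Cpox), with a median of 0.21 and 19 of 28 above 0. No pair passed after adjustment over the 28, by Pearson or by Spearman (0 of 28 each, two-sided permutation tests). At an unadjusted p under 0.05 there was 1 pair by Pearson and 2 by Spearman. Alas2 and Cpox had an r of 0.68 (permutation p = 0.0231, adjusted 0.489) and a rho of 0.85 (permutation p = 0.00295, adjusted 0.0826), with an r of 0.64 without SG 3 and SHAM 4. On log2(FPKM + 0.5) in place of log2 CPM, r for Alas2 and Cpox was lower, at 0.46. Alas1 and Uros had an r of 0.60 (permutation p = 0.1, adjusted 0.489) and a rho of 0.73 (permutation p = 0.0201, adjusted 0.282). That r was 0.38 without SG 2 and SHAM 2, so the relation rested in part on those libraries. Alas1 and Alas2 had an r of -0.017 (permutation p = 0.9655, adjusted 0.9655) and a rho of -0.19 (permutation p = 0.6065, adjusted 0.8208).

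Genes of the transcriptional control of Alas1 were read beside it, and their correlations too were chosen after the values were seen. Of 14 listed regulators 13 were tested, and 0 passed in edgeR between groups, with 0 at an unadjusted p under 0.05 and a median log2 fold change of -0.12. The pair with the smallest p was Bach1, a heme-binding repressor (-0.18 ± 0.11 SE), and the corepressor gene Ncor1 (0.11 ± 0.11). Across the 10 libraries Alas1 had its highest r among them with the drug-sensing receptors Nr1i3 and Nr1i2. Nr1i3, the constitutive androstane receptor, had 31.7, 9.38, 27.0, 33.3 and 34.9 FPKM in SG 1 to SG 5, lowest in SG 2 as Alas1 was, and 30.2, 39.9, 18.2, 17.1 and 33.1 in SHAM 1 to SHAM 5. Its r with Alas1 was 0.86 (permutation p = 0.00863, adjusted 0.0561) and its rho 0.47 (permutation p = 0.179, adjusted 0.292), and r was 0.25 without SG 2 and SHAM 2, so the relation rested on those libraries. Nr1i2, the pregnane X receptor, had an r of 0.82 (permutation p = 0.0066, adjusted 0.0561) and a rho of 0.73 (permutation p = 0.0204, adjusted 0.154), with 0.49 without those libraries. None of the 13 relations passed after adjustment. The clock output gene Tef had an r of 0.63 (permutation p = 0.0478, adjusted 0.1925), a rho of 0.72 (permutation p = 0.0237, adjusted 0.154) and an r of 0.58 without those libraries, and Ppargc1a, a fasting coactivator of Alas1, one of 0.46 (permutation p = 0.192, adjusted 0.312), which was -0.24 without SG 2 and SHAM 2. Nrf1 encodes the factor whose motif half-site is marked by letters in the Alas1 window, where binding was not tested. It had an r of 0.27 (permutation p = 0.477, adjusted 0.563) and a rho of 0.31 (permutation p = 0.3855, adjusted 0.5568).

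Over all other tested genes, those most like Alas1 in log2 CPM across the 10 libraries were Urad (r = 0.95), an enzyme of urate breakdown, Fbxo21 (0.94), a ubiquitin ligase subunit, and Chd1l (0.92), a chromatin remodeler. Urad ran from 52.2 FPKM in SG 2 to 116 in SG 1. Without SG 2 and SHAM 2 these values were 0.82, 0.86 and 0.71. Those most like Alas2 were Hba-a2 (0.98), LOC689064 (0.97) and LOC103694857 (0.96). The table annotates LOC689064 to the hemoglobin complex, and LOC103694857 has its isoform at the same assembled locus. These genes were picked as the highest of 11131, so the values are a description and carry no test.

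Around the pathway no listed gene passed in edgeR (adjusted p = 0.993 to 1). Of 12 transporters and mitochondrial helpers of heme synthesis, all tested, 4 were above and 8 below 0, with a median log2 fold change of -0.13 and 1 at an unadjusted p under 0.05. This was Slc25a38, the mitochondrial glycine carrier that feeds the first step, with 8.47 to 11.8 FPKM in SG and 9.60 to 12.9 in SHAM (log2 fold change -0.24 ± 0.098 SE, edgeR adjusted p = 0.993). Slc25a39, the mitochondrial glutathione carrier, stood at -0.21 ± 0.11. For the supply of glycine and succinyl-CoA, 9 of 10 listed genes were tested, with a median of -0.012 and 0 at an unadjusted p under 0.05. Shmt2 (-0.27 ± 0.17) and Dld (0.16 ± 0.11) had the smallest p there. Among 13 genes of iron-sulfur clusters and mitochondrial iron, the median was -0.019. Lyrm4 (0.38 ± 0.15), a partner of the cysteine desulfurase, was the 1 gene at an unadjusted p under 0.05, and Isca1 stood at 0.95 ± 0.56.

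After its synthesis heme is moved, used and broken down. The 4 tested genes of heme and bilirubin breakdown were all below 0, with a median log2 fold change of -0.30 where all genes had -0.0099 and 47.4% of them were above 0. Of the 4, 2 had an unadjusted p under 0.05, as 4.48% of all genes did, and 0 passed in edgeR (adjusted p = 0.993). Blvrb, a biliverdin reductase, averaged 52.6 ± 9.38 FPKM over SG and 63.3 ± 5.57 over SHAM libraries (SD, n = 5), with overlap (-0.36 ± 0.14 SE). Hmox2, the constitutive heme oxygenase, had 19.8 ± 0.635 and 21.3 ± 2.17 FPKM (-0.19 ± 0.075). Of 9 tested genes of heme export, uptake and binding, Fabp1, a fatty acid binding protein that also binds heme, stood at 0.73 ± 0.21 and the transporter gene Flvcr2 at -0.69 ± 0.31, each at an unadjusted p under 0.05. Fabp1 had 197 to 305 FPKM in SG and 112 to 201 in SHAM, where SHAM 4 alone lay above the lowest SG library. Among 20 tested heme proteins of hepatocytes the median was -0.044. Cycs, cytochrome c, stood at 0.51 ± 0.22, the 1 gene there at an unadjusted p under 0.05, and Cyp7a1, the first enzyme of bile acid synthesis, at -1.46 ± 0.69.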

How the data were processed

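Total RNA of rat liver was depleted of ribosomal RNA and sequenced as paired-end libraries, per the labels' protocols. Tools listed in the submitters' processing notes, with no role or order, are StringTie 1.3.4, HISAT2 2.0.4, FastQC 0.10.1 and cutadapt 1.9, with the build Rnor_6.0; whether counting used strand is not stated there. The authors deposited FPKM and estimated counts of each isoform, per the file headers. The counts are whole numbers proportional to FPKM times length, so reads shared by isoforms are divided by estimate. Totals were 65824088 to 92110190 estimated counts per library. For scarce genes such as Alas2, depth limits precision beside the spread between libraries.

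Values were summed per gene name. Genes with a mean of at least 1 FPKM were tested with edgeR 4.0.16 (R 4.3.3; quasi-likelihood, trimmed mean of M values, rounded counts, Benjamini-Hochberg over all genes), and isoforms with a mean of at least 0.1 FPKM and above 0 in at least 5 libraries likewise. Standard errors came from the F statistic. DESeq2 1.42.0, limma 3.58.1, other filters, left-out libraries and a replicate block were alternatives. Correlations used log2 CPM (prior count 2), with 100000 resamples. Those with red cell markers and regulators were added after the values were seen, as were the promoter motifs. Scripts were tested on simulated data. Named genes are the 8 members, the 2 smallest p-values of each pathway list and of the red cell markers and the 3 genes most alike to Alas1 and to Alas2. Nr1i2, Nr1i3, Tef, Ppargc1a, Nrf1, Slc4a1, Tfr2, Epb42, Ahsp, Rhag, Epor, albumin, Fga, Tf, Cps1 and Tat, which this rule does not give, were named after their values were seen. Other cell type marker lists are given as sums. Members and lists were chosen with earlier results of these data known.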

Additional observations from a re-analysis of the deposited data

Results flagged for a closer look

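Within a group of 5 libraries, a value was singled out where its gap to the nearest other exceeded 0.71 of the group's range. Chance gives this in about 1 of 20 groups of independent, normally distributed values. Isoform values near 0 and isoforms of the same gene are not such values, so that rate does not apply to the count that follows. Of 46 groups of gene or isoform values 4 were singled out, all of them isoforms. The Alad isoform ENSRNOT00000075916 had 56.1 FPKM in SG 2 where SG 1 and SG 3 to SG 5 had 0.058 to 0.127. The same isoform had 85.6 FPKM in SHAM 3, where the rest of its group had 0.025 to 24.1. The Urod isoform MSTRG.18580.1 had 1.78 FPKM in SG 1 against 0 to 0.011. The Ppox isoform MSTRG.6750.3 had 1.115 FPKM in SG 5 where SG 1 to SG 4 had 3.64 to 4.13. The gene sums of Alad, Urod and Ppox were not singled out in these groups.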

How the results depend on the processing

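No heme synthesis enzyme or isoform of one passed under the alternatives run. The number of genes called was 18 in DESeq2, 0 to 1 with 1 library left out (1 without SG 5 or SHAM 1) and 1 without both SG 2 and SHAM 5. Isoforms called were 0 to 6 with 1 library left out (2 without SG 2 or SG 3, 6 without SHAM 1, 1 without SHAM 5). In limma the sign turned for Ppox (0.087, 0.094 and 0.080 at pseudocounts 0.5, 0.1 and 1) and Fech (0.049, 0.049 and 0.048), on a scale whose median over all genes was 0.080 at 0.5, and Alas2 stood at -0.55, -0.63 and -0.48. It also turned with reference-matching isoforms alone for Urod (-0.012), and without both SG 2 and SHAM 5 for Alas1 (0.036) and Fech (0.13), where Ppox stood at -0.111. With 1 library left out, log2 fold changes ran from -0.27 to 0.12 for Alas1, -1.44 to -0.61 for Alas2, -0.24 to -0.0034 for Alad, -0.057 to 0.18 for Uros, -0.054 to 0.067 for Urod, -0.21 to -0.012 for Cpox, -0.072 to 0.12 for Ppox and -0.14 to 0.075 for Fech. The cause was not tested. Alas2 reached an unadjusted p under 0.05 in edgeR with reference-matching isoforms alone (0.0365), without SHAM 1 (0.04925) and without SHAM 2 (0.0394).

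With the shared number as a replicate block, Ppox stood at 0.0046, and 0 genes were called (454 at an unadjusted p under 0.05). Deviations from the group mean of each gene, on log2 CPM, correlated at -0.22 to 0.14 between same-numbered libraries. By these deviations 1 of 10 libraries correlated best with its own number, so the numbers were not taken as pairs. The precision of Alas2 is limited by its spread between libraries (coefficient of variation 88.7%) as well as by its depth of 63 to 857 estimated counts.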
